A study of Mus musculus with 12 samples.

Results

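The transcripts examined here encode B2m (beta-2 microglobulin, the light chain shared by MHC class I molecules) and 5 class I heavy chains, the classical chains H2-K1 and H2-D1 and the non-classical chains H2-M3, H2-Q10 and H2-T23. All non-control probes of these 6 genes were taken, out of 17016 genes named on the array, whatever their values. This gave 14 probes, of which 6 probes of 5 genes could be tested. Islets were cut by laser from frozen pancreas. There were 6 female NOD mice and 6 female NOD.B10 mice, each at 12 weeks of age, with sections of no fewer than 40 islets collected. The RNA was preamplified, labelled with Cy5 and hybridised with a Cy3-labelled universal mouse reference RNA on 2-colour Agilent arrays, 1 array per mouse, with the dyes never swapped. The groups carry no transgene, treatment or further allele in the labels, which give only the strain names. The comparison asks which class I transcripts differ in islets of the diabetes-prone NOD strain.

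As background, a class I heavy chain folds around a peptide from inside the cell, pairs with B2m and carries the peptide to the surface, where CD8 T cells read it. Heavy chains without B2m are mostly held back in the endoplasmic reticulum. Interferons and NF-kappa B raise transcription of these genes through short promoter elements, together with a complex of RFX, CREB, NF-Y and NLRC5. Most cells carry class I, leukocytes at high and resting endocrine cells at low levels, and raised class I on islet cells is a known trait of autoimmune diabetes in people and in NOD mice. NOD mice develop autoimmune diabetes. NOD.B10 mice share most of the NOD genome, carry the MHC of the C57BL/10 strain and stay free of diabetes. In textbook terms the strains carry different H2-K1 alleles and the same H2-D1 allele, so a probe of a heavy chain may bind the strains' transcripts unequally, while B2m lies outside the MHC. Probe sequences were not analysed here, so binding to either allele or to related class I genes was not tested.

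A plain measure of the islet channel is the unscaled net signal, Cy5 minus local background in scanner units. The tested quantity is the log2 ratio of Cy5 to Cy3 after background correction and intensity-dependent (loess) scaling within each array. A probe was tested where the scanner marked Cy5 as well above background on at least 4 of 12 arrays, which 5347 probes passed. A call is an adjusted p under 0.05 in limma's test over these probes. By this rule 4 of the 6 tested class I probes were called higher in NOD (2 of B2m, 1 of H2-K1 and 1 of H2-M3) and 1 lower (H2-Q10). The background over all tested probes was 20.1% called higher and 16.2% called lower, with a median difference of 0.02 on the log2 scale. Those were 1075 and 867 probes, and centring each array on its median instead of loess gave 2579 and 1. The log2 ratios of 4 member probes did not overlap between the strains in the direction of higher NOD, as was so for 9.99% of all tested probes.

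Whole arrays differed as well. Cy5 was well above background on 10.7 to 17.3% of spots in NOD and on 3.96 to 7.88% in NOD.B10, whereas Cy3 ranged from 46.7 to 51.9% and from 47.8 to 54.4%. Among 1082 probes bright on every array, unscaled net Cy5 was higher in NOD by a median of 1.65 on the log2 scale. Ins1 and Ins2, the insulin genes that define beta cells, were read above background on all 12 arrays. The summed net Cy5 of 9 leukocyte markers was 621 to 4630 in NOD and 23 to 68 in NOD.B10. In whole captured islets more cells of a type and more RNA per cell cannot be told apart. Slide 1 held only NOD mice and slide 4, scanned on another day, only NOD.B10 mice, so strain differences within a slide come from slides 2 and 3, each with 2 mice of either strain.

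The promoter sequences of the genes whose probes were tested are shown first, since 3 of these genes were called higher and H2-D1 was not called, and since the elements named above can be read in them. Each is the 250 bases before the annotated transcript start, 5′ to 3′ on the gene's strand, from RefSeq on mouse build GRCm38.p6, which represents C57BL/6J. Capitals mark matches to 1 of 6 short motifs, searched on both strands, which were chosen after these sequences were seen.
B2m, chr2:122147437-122147686, plus strand: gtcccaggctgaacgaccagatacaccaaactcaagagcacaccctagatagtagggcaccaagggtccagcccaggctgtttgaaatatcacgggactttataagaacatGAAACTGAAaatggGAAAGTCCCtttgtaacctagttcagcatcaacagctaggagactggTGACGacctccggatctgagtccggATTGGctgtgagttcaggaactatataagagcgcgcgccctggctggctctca
H2-K1, chr17:34000334-34000583, minus strand: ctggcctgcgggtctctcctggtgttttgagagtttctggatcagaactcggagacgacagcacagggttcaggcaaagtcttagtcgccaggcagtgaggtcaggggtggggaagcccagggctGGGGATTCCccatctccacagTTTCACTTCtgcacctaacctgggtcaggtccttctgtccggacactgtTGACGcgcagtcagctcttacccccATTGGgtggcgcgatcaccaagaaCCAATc
H2-D1, chr17:35262844-35263093, plus strand: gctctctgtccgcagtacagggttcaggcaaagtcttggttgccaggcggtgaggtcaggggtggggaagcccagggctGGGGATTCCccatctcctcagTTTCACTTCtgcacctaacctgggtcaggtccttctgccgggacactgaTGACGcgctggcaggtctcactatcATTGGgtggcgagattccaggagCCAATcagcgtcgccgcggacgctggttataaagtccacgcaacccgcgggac
H2-M3, chr17:37269984-37270233, plus strand: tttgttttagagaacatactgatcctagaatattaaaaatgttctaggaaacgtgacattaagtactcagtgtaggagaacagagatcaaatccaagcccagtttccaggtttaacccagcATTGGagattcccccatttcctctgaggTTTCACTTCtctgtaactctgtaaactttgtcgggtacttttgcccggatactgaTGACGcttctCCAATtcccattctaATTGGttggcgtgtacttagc
H2-Q10, chr17:35469839-35470088, plus strand: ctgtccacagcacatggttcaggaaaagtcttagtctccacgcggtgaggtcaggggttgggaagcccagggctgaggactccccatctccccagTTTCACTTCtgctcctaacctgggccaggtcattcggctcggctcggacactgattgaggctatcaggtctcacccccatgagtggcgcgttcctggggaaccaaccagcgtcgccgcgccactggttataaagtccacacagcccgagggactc

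The motifs were GAANNGAAA (the core of an interferon response element), GAAANNGAA (from the interferon-stimulated response element), GGGGATTCC and GGGACTTTC (from the kappa B sites of class I and immunoglobulin genes), TGACG (part of the CREB site) and CCAAT (the NF-Y box). No match overlapped a match of another motif. In H2-K1 and H2-D1 the same motifs stood in the same order. GGGGATTCC lay from 125 to 117 bases before the start in H2-K1 and from 171 to 163 in H2-D1. It was followed by TTTCACTTC, which is GAANNGAAA read on the other strand, and then by TGACG and by CCAAT on both strands. GGGGATTCC stood in 70 of the 32851 windows of this length in the whole table (0.213%). H2-M3 held the interferon core from 101 to 93 bases before the start, TGACG and CCAAT, but neither form of the kappa B letters.

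B2m held GAAANNGAA from 139 to 131 bases before its start and GGGACTTTC, on the other strand, from 125 to 117. The H2-Q10 window held the interferon core and none of the other 5 motifs. H2-T23 held GAAANNGAA and CCAAT. GAANNGAAA stood in 4 of the 6 windows against 6.31% of all windows, GAAANNGAA in 2 against 7.13%, and GGGACTTTC in 1 against 0.289%. The short motifs are common, since TGACG stood in 4 of the 6 and in 17.8% of all windows, and CCAAT in 5 and in 33.8%. H2-K1 has 2 annotated starts, of which the one farthest downstream was used. A match is a description of letters in the reference strain, and the NOD sequence was not analysed here.

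**Figure D1:**
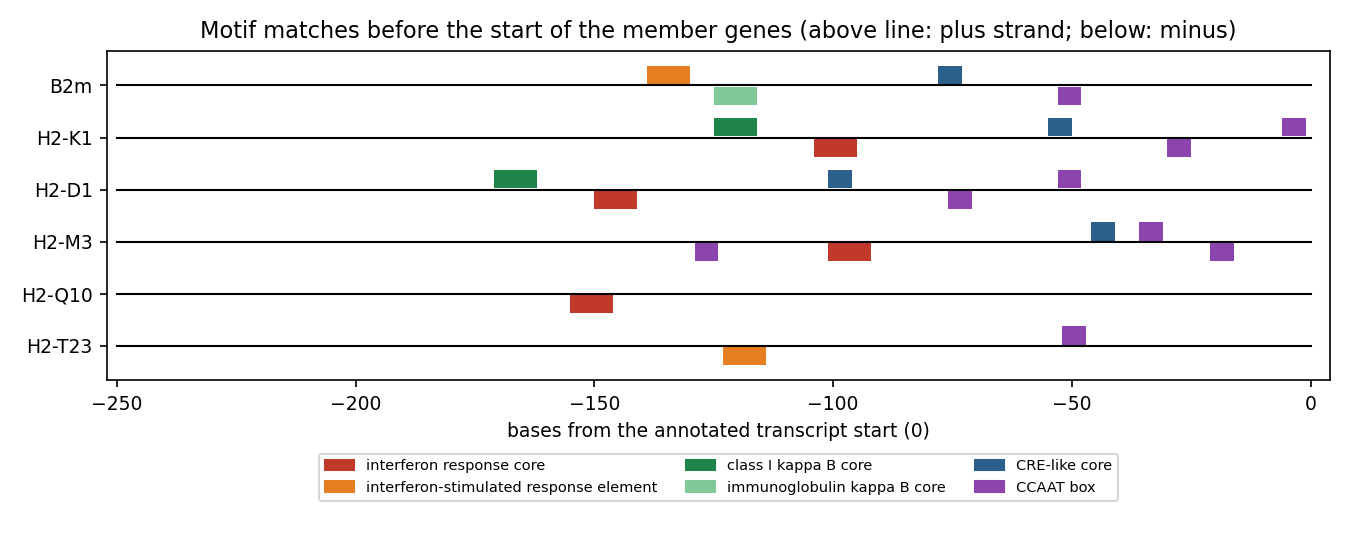
Positions of the motif matches in the 250 bases before the annotated start of each of the 6 genes, with the distance from the start in bases on the x axis, plus-strand matches above and minus-strand matches below each line. H2-K1 and H2-D1 show the same series of matches, shifted by the position of the start, and H2-Q10 shows a single match, from 155 to 147 bases before the start.

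B2m, the light chain on which surface expression of the heavy chains rests, was higher in every NOD mouse than in any NOD.B10 mouse at both of its probes. Probe A_51_P129012 read net Cy5 of 2730, 4520, 834, 2230, 1100 and 2820 in NOD replicates 1 to 6. In NOD.B10 it read 39, 50.5, 47, 39, 43 and 21. The lowest NOD value thus lay far above the highest NOD.B10 value, and all 12 readings were well above background. Net Cy3 of this probe was high on all arrays, 33100 to 44500 in NOD and 30100 to 56500 in NOD.B10, so the reference signal overlapped between the strains.

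After scaling, the log2 ratio of B2m at this probe was 4.14 ± 0.63 in NOD (SD, n = 6) and -0.14 ± 0.19 in NOD.B10. The difference of 4.27 ± 0.24 (SE), a 19.4-fold rise with a 95% interval of 3.75 to 4.80 on the log2 scale, had an adjusted p of 2.31e-07 in limma. It was the 4th largest rise among the 5347 tested probes. NOD replicate 3 was lowest at 3.13 and NOD replicate 4 highest at 4.91, although both lay on slide 2. The spread within NOD was thus larger than in NOD.B10, where ratios ran from -0.43 to 0.08.

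The other B2m probe, A_51_P129006, is printed as 10 spots per array and so gives a technical error within each mouse. Its net Cy5, averaged over spots, was 602 to 2700 in NOD and 16.9 to 45.1 in NOD.B10. The SD between its spots was 0.12 to 0.51 on the log2 scale in NOD and 0.11 to 0.25 in NOD.B10. The lowest single spot in any NOD mouse read 2.61 and the highest in any NOD.B10 mouse 0.23, so the strains were apart spot by spot. The mouse ratios were 3.75 ± 0.56 and -0.26 ± 0.12 (SD, n = 6 each), a difference of 4.00 ± 0.22 (SE; 16-fold; adjusted p = 1.9e-07, limma). The probes of B2m ranked NOD replicate 3 lowest in both cases.

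**Figure D2:**
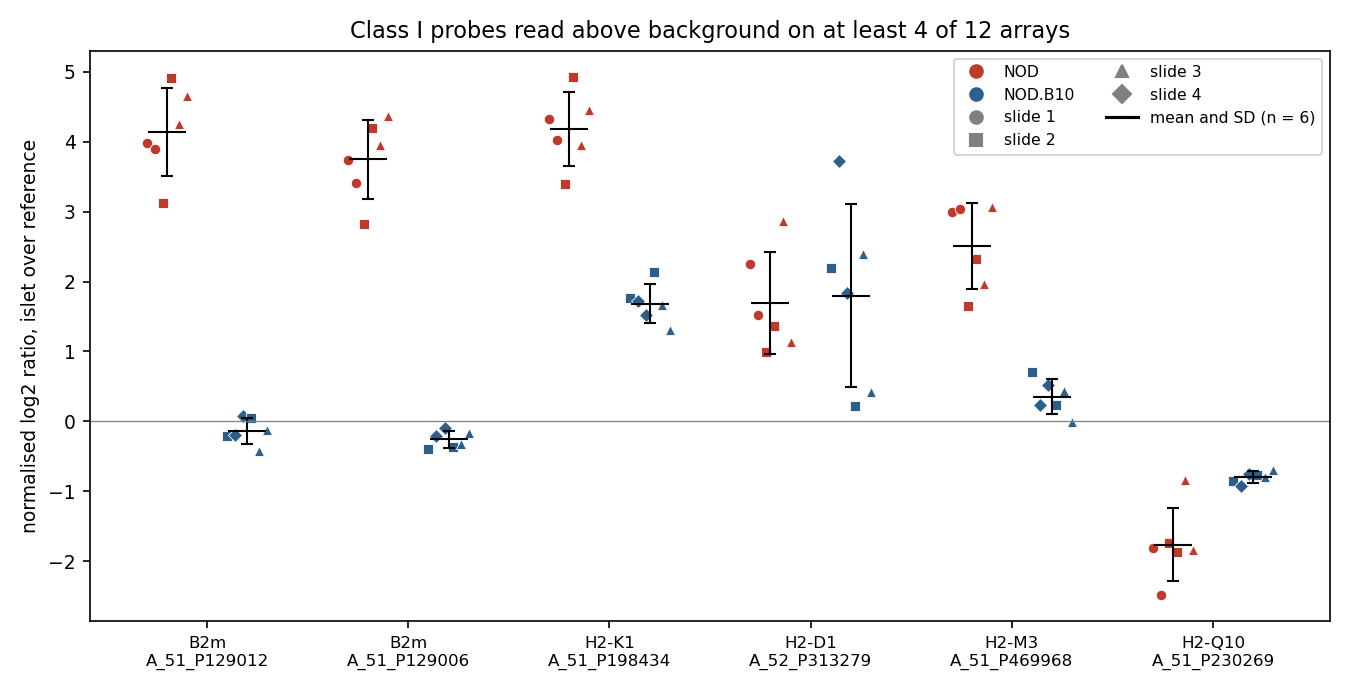
Normalised log2 ratio of islet to reference for the 6 tested probes (y axis), 1 point per mouse, NOD in red and NOD.B10 in blue, with the point shape giving the slide and black bars the mean ± SD of 6 mice. Both B2m probes, H2-K1 and H2-M3 separate the strains without overlap, H2-D1 overlaps widely, and H2-Q10 lies lower in 5 of 6 NOD mice, with NOD replicate 5 at -0.84 among the NOD.B10 values.

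Because B2m is bright in the reference RNA, islet signal can also be given as a percentage of the reference signal of the same spot. This percentage was ranked among all probes with net Cy3 above 5000, without matching for reference brightness. B2m at A_51_P129012 reached 2.25 to 13.6% of the reference in NOD and 0.0535 to 0.129% in NOD.B10. The median probe with net Cy3 above 5000 stood at 0.563 to 2.04% on the NOD arrays and at 0.179 to 0.373% on the NOD.B10 arrays. B2m therefore lay between the 79.3 and 93.6 percentiles of such probes in NOD and between the 20.1 and 32.9 percentiles in NOD.B10. These ranks are taken within each array.

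The same ranking placed H2-K1 otherwise. H2-K1, a classical heavy chain, lay between the 98.3 and 99.2 percentiles in NOD and still between 92.8 and 97.5 in NOD.B10. In shares of the reference these were 6.83 to 32.7% and 0.779 to 1.97%. H2-K1 was thus among the ranked probes with the highest islet share in both strains. B2m stood above the median of the ranked probes in NOD and below it in NOD.B10. Net Cy3 was 6030 to 9140 for H2-K1 and 30100 to 56500 for B2m at A_51_P129012. The ranks of these genes were therefore not compared at like reference brightness.

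H2-K1 was higher in all 6 NOD mice at its 1 readable probe, A_51_P198434, also printed as 10 spots. Net Cy5 was 1680, 2130, 568, 1330, 604 and 1370 in NOD replicates 1 to 6 and 108, 114, 86.7, 119, 120 and 58.1 in NOD.B10. The groups did not overlap, and NOD replicates 3 and 5 were the lowest of their strain. The log2 ratio averaged 4.18 ± 0.52 in NOD against 1.69 ± 0.28 in the control strain (SD, n = 6 each). The difference was 2.50 ± 0.22 (SE), 5.64-fold, with a 95% interval of 2.02 to 2.98 and an adjusted p of 1.34e-05 in limma. The SD between spots of a mouse was at most 0.44 in NOD and 0.30 in NOD.B10.

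The size of the H2-K1 difference rested on the scaling. With the scanner's own processed ratios it was 0.56 (adjusted p = 0.099, limma), relative to the median of all probes. With the share of bright spots per array as a covariate it was 2.17 (adjusted p = 0.234, limma). That value lies within the reported interval, and its SE was 0.52 instead of 0.22. The Cy5 share of bright spots did not overlap between the strains, so that fit separates it poorly from strain. The other H2-K1 probes, A_52_P474242 and A_52_P50496, were above background on no array. They were dim in the reference too, with net Cy3 of 9.5 to 39 and 3 to 15.5 where the readable probe had 6030 to 9140.

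H2-D1, the other classical heavy chain, did not separate the strains. At probe A_52_P313279 net Cy5 was 115, 76.5, 30.5, 44, 128 and 38.5 in NOD and 71.5, 201, 57.5, 6, 84.5 and 11 in NOD.B10 replicates 1 to 6. The highest and the 2 lowest values were all NOD.B10 mice, replicate 2 on one side and replicates 4 and 6 on the other, and those lowest values were not well above background. Log2 ratios were 1.69 ± 0.73 and 1.80 ± 1.31 (SD, n = 6 each), a difference of -0.11 ± 0.54 (SE; adjusted p = 0.897, limma). The 95% interval, -1.28 to 1.06, leaves out rises as large as those of H2-K1 or H2-M3 but not smaller changes in either direction. The sign turned positive with slide as a term (0.28), within slide 3 (0.60) and without slide 4 (0.38). Other settings moved it the other way, to -0.84 with the scanner's processed ratio and -0.78 with Cy5 alone. With the share of bright spots as a covariate it was -1.05. The reference signal of this probe was itself uneven, with net Cy3 of 108 to 665, a 6.16-fold range against 1.52-fold for H2-K1, and NOD.B10 replicate 2 was highest in both channels.

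**Figure D3:**
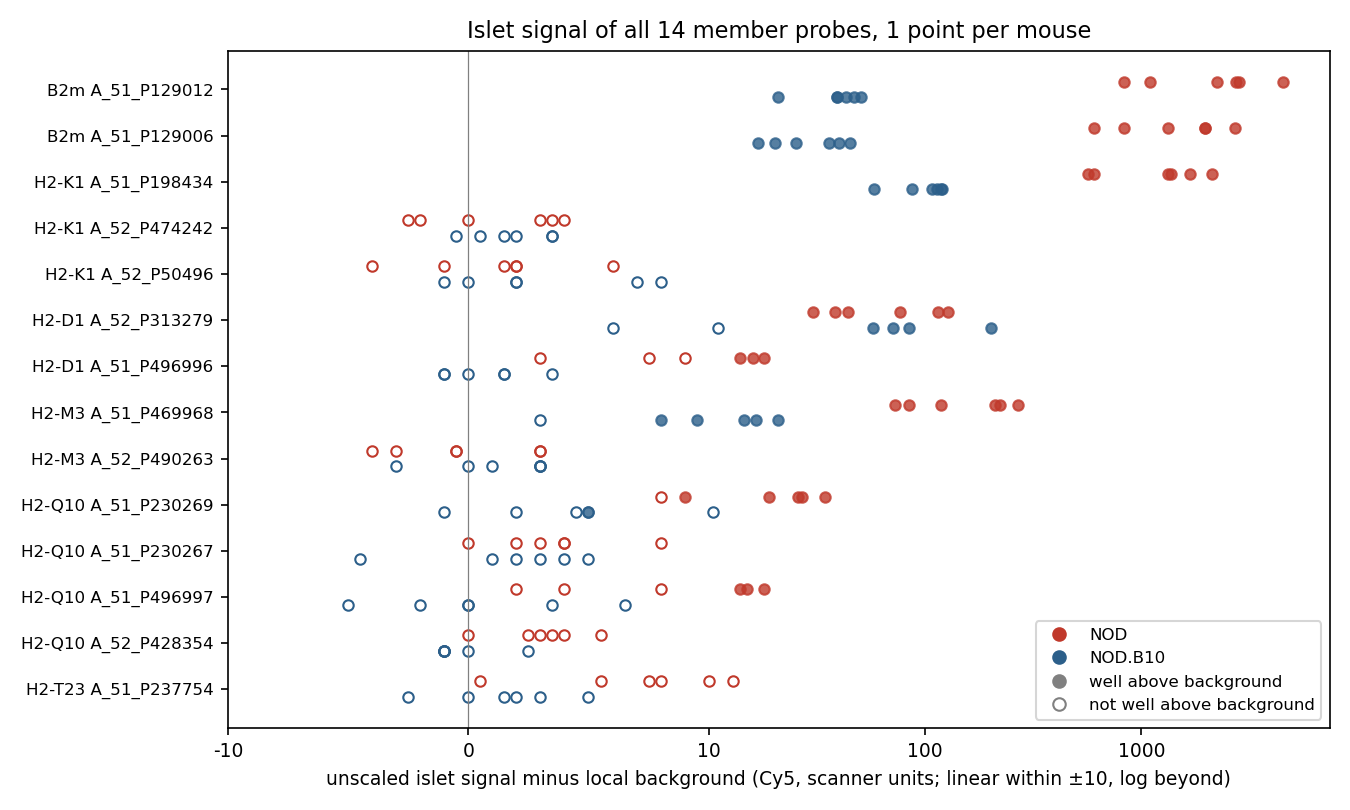
Unscaled islet signal minus local background (x axis, Cy5 in scanner units, linear within ±10 and logarithmic beyond) of all 14 probes, 1 point per mouse, NOD in red and NOD.B10 in blue; filled points were well above background and open points were not. Both B2m probes, the brightest H2-K1 probe and the brightest H2-M3 probe separate the strains, while 6 probes have open points only.

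H2-M3 presents N-formylated peptides, which come from bacteria and mitochondria, to a class of CD8 T cells. Its brightest probe, A_51_P469968, read net Cy5 of 222, 270, 73, 118, 84 and 210 in NOD and of 21, 9.5, 16.5, 8, 14.5 and 3 in NOD.B10. All 6 NOD and 5 of 6 NOD.B10 readings were well above background, and the lowest NOD mouse exceeded the highest NOD.B10 mouse. The log2 ratio averaged 2.51 ± 0.62 in NOD against 0.35 ± 0.25 in the control strain (SD, n = 6 each). H2-M3 thus rose by 2.16 ± 0.25 (SE), 4.46-fold, with a 95% interval of 1.62 to 2.69 and an adjusted p of 7.68e-05 in limma. With the share of bright spots as a covariate the difference was 0.68 (adjusted p = 0.735), and with Cy5 scaled alone it was 0.95. The other H2-M3 probe, A_52_P490263, was near background in both channels on all arrays.

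H2-Q10 encodes a secreted class I chain made mainly by liver. Its brightest probe, A_51_P230269, was called lower in NOD, at -1.76 ± 0.53 against -0.80 ± 0.08 (SD, n = 6 each). The difference was -0.97 ± 0.20 (SE), with a 95% interval of -1.40 to -0.53 and an adjusted p of 0.00281 in limma. It was well above background on 5 NOD arrays and 1 NOD.B10 array. Its unscaled net Cy5 went the other way, with a median of 22.5 in NOD and of 4.75 in NOD.B10, beside net Cy3 of 6530 to 11700. The same was so for 808 of the 867 probes called lower, whose mean unscaled Cy5 was higher in NOD. The direction of H2-Q10 turned to 0.19 with Cy5 alone and to 0.14 with the covariate, and was 0 relative to all probes with median centring, so no direction holds across the scalings.

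Among the 3 further H2-Q10 probes, A_51_P230267 and A_52_P428354 were above background on no array and A_51_P496997 on 3 NOD arrays only. H2-T23 encodes Qa-1, the ligand of the inhibitory receptor NKG2A with CD94. Its 1 probe, A_51_P237754, was not well above background on any array, at net Cy5 of 0.5 to 13 in NOD and -2.5 to 5 in NOD.B10, although the reference read 166 to 332. No level or direction can be given for H2-T23 at this signal. In all, 8 of the 14 probes were not tested, 6 of them dark on every array.

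Whether the chains moved by unequal amounts was tested on the difference of log2 ratios of 2 probes within each mouse, with the brightest probe per gene. This test was chosen after the values were seen. Of 10 pairs, 4 include H2-Q10, whose NOD.B10 ratios come from 1 array above background and whose direction turned with the scaling, so they are not read further. Of the other 6 pairs, 5 differed between the strains after Benjamini-Hochberg adjustment over all 10 of exact 2-sided permutation p-values, whose smallest possible value is 0.00216. B2m rose by 1.78 more than H2-K1 (adjusted exact p = 0.0036) and by 2.12 more than H2-M3 (adjusted exact p = 0.0036). The within-mouse difference of B2m and H2-K1 averaged -0.04 ± 0.25 in NOD against -1.82 ± 0.31 in the control strain (SD, n = 6 each). All pair tests used the reported scaling only. With the scanner's processed ratio the strain differences of B2m, H2-K1 and H2-M3 were 2.49, 0.56 and 1.94, relative to the median of all probes. With a background offset of 16 instead of 50 they were 3.53, 1.58 and 2.50, and with median centring 4.22, 2.57 and 1.33. The sizes of these gaps, and the order of H2-K1 and H2-M3, thus depended on the scaling.

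H2-K1 and H2-D1, whose promoter windows hold the same motifs in the reference strain, differed in their strain difference by 2.61 (adjusted exact p = 0.00619). Unequal binding of the H2-K1 probe to the strains' alleles was not tested and cannot be told apart from this difference. H2-D1 fell short of H2-M3 by 2.27 (exact p = 0.00649, adjusted 0.00811), since the difference of H2-D1 minus H2-M3 was -0.82 ± 0.98 in NOD and 1.45 ± 1.24 in NOD.B10. The rises of H2-K1 and H2-M3 differed by 0.34 (adjusted exact p = 0.26), which does not show that they were equal. H2-D1 itself was above background on 4 of the 6 NOD.B10 arrays. Its reference signal had a 6.16-fold range and its sign turned with the slide settings, which limits every pair that includes it.

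Among the 6 NOD mice, B2m and H2-K1 followed a similar order. Pearson's r was 0.92 (exact permutation p = 0.0139, adjusted over 4 relations 0.0556) and Spearman's rho 0.83 (exact p = 0.0583). Without the 2 mice farthest from the median of B2m, r was 0.53, so the relation rested on those mice. In NOD.B10 the same pair gave r = 0.17 (exact p = 0.779) over a narrow range of ratios. B2m in NOD had r = 0.38 with H2-M3 and r = 0.11 with H2-D1 (adjusted exact p = 0.825 for each).

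**Figure D4:**
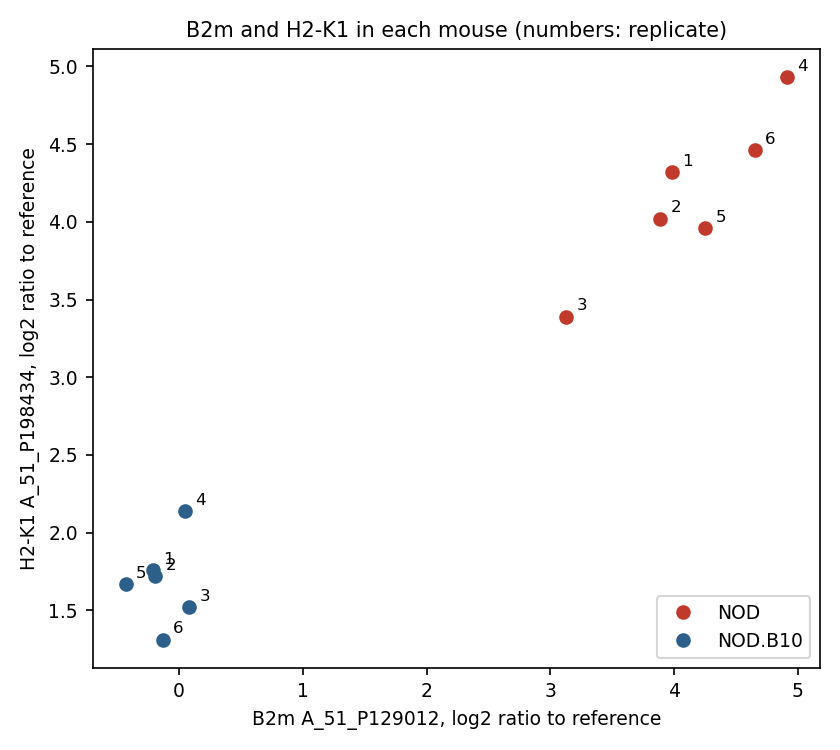
B2m (x axis) and H2-K1 (y axis) in each mouse, both as the normalised log2 ratio of islet to reference, NOD in red and NOD.B10 in blue, with the replicate number beside each point. NOD replicate 3 is lowest and replicate 4 highest for both genes, and the strains form separate groups.

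Once strain means were taken off, the genes whose ratios followed B2m most closely over the 12 arrays were Gng11, C3, Pik3ip1, Msl3 and Snrpc, with r of 0.93, 0.92, 0.92, 0.91 and 0.90 among 3920 genes. C3, the central complement component, was itself higher in NOD by 1.79 on the log2 scale, and the other 4 differed by 0.20 or less in size. For H2-K1 they were Rpl27, Setd2, Tmem165, Msl3 and Mgst2, with r of 0.93 to 0.87. These are descriptions over 12 arrays that share the normalisation.

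The genes that load peptide on class I were then read as a list, with each gene at its brightest tested probe. Of 13 such genes 8 were tested, 4 were called higher and 1 lower, with a median difference of 0.42 against 0.02 for all probes. Over all tested probes 20.1% were called higher and 16.2% lower, which is the background for this list and the lists below. The 1 lower call was of the chaperone Calr, above background on 4 NOD arrays and on no NOD.B10 array. That call is no support for a direction, and it was lost with slide as a term, median centring, Cy5 alone and the replicate block. It was also lost without any one of NOD replicates 1, 2, 4 and 6 and NOD.B10 replicates 4, 5 and 6. Of the 8, 4 passed the filter through NOD arrays alone, called genes among them, so these counts and the median are no support for a direction. The higher calls were 1 among the genes bright enough for the net ratio. Psme2, a subunit of the proteasome activator, rose 2.32-fold (adjusted p = 0.000124, limma), with signal on all 12 arrays. Psmb10, an immunoproteasome subunit, passed the filter through NOD arrays alone, so only a bound is given, at least 1.47-fold higher in NOD. For Psme1, read on 2 NOD.B10 arrays, the rise was 1.86-fold (adjusted p = 0.0014, limma). Tapbp, which holds class I at the peptide transporter, differed by 0.32 and did not pass. Of 7 tested genes of endoplasmic reticulum quality control and trafficking, 0 were called by limma and 0 had an unadjusted p under 0.05, with a median of -0.09. The chaperone Hsp90b1 had the lowest adjusted p, 0.362. With the scanner's processed ratio 4 of the 7 were called lower, and with Cy5 alone 2 were called higher, so this count depends on the scaling.

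Of 17 regulators of class I transcription 5 were tested, 3 were called higher and 0 lower, beside 20.1% and 16.2% of all tested probes. Their median was 0.65, and 2 of the 5 passed the filter through NOD arrays alone, a called gene among them. This count and median are thus no support for a direction. Irf1, a factor that binds interferon response elements, was called higher with 1 NOD.B10 array above background, so no size is given (adjusted p = 7.68e-05, limma). Its binding to the matches shown above was not tested. Of 8 interferon receptor and signalling genes 4 were tested, 2 of them through NOD arrays alone, and 3 called higher, with a median of 1.05. A called gene was among those 2, so this count and median are no support for a direction either. Both Ifngr1, the ligand-binding chain of the interferon gamma receptor, at 4.96-fold (adjusted p = 0.000302, limma) and the kinase Jak1 at 2.69-fold (adjusted p = 0.00203, limma) were read on all 12 arrays. Of the 15 regulators on the array, which include factors outside the promoter complex, 8 were above background on no array.

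Of 35 other class I and class I-like genes 25 were on the array, 20 were above background on no array and 5 were tested. H2-Q8, read on 5 NOD arrays and no NOD.B10 array, and H2-T10, with 1 NOD.B10 array (adjusted p = 0.0282, limma), were called higher. No size is given for either. H2-Q8 passed the filter through NOD arrays alone, so its call is no support for a direction. These 2 higher calls became 0 with median centring and 1 with slide as a term, without slide 4 or without any one of NOD replicates 2 and 6 and NOD.B10 replicates 1, 2 and 5. Azgp1, a class I-like secreted protein, was lower by 1.57 on the log2 scale, at -2.29 in NOD and -0.72 in NOD.B10 (adjusted p = 0.000723, limma), but it kept no call with Cy5 alone, median centring or the scanner's ratio.

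Of 18 receptors that bind class I, 5 became testable, each through the NOD arrays alone, with no NOD.B10 array above background. All were called higher, but the filter took them in through the strain where they are high, so this count is no support for a direction, and it was 1 with median centring. Bounds are given for Klrd1 (CD94, a partner chain of the receptors for Qa-1) at no less than 1.52-fold higher and Cd8a, a chain of the T cell co-receptor for class I, at no less than 1.17-fold higher. Klra7 and Klrc2 have no bound above 1.

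Markers of other cell types moved with the class I rise. All 3 tested T cell markers, all 5 of B and plasma cells and 7 of 8 of leukocytes passed the filter through NOD arrays alone, so their calls are not counted here. Of 4 tested markers of macrophages and dendritic cells, each read on at least 1 NOD.B10 array, 4 were called higher, beside 20.1% of all tested probes. Summed net Cy5 was 75.5 to 598 in NOD and 0 to 20 in NOD.B10 for T cells, 409 to 2980 and 14 to 27 for B and plasma cells, and 1130 to 7750 and 52.5 to 126 for macrophages and dendritic cells. Ptprc, the pan-leukocyte surface phosphatase CD45, was above background on all 6 NOD arrays and on no NOD.B10 array. Lyz2, a macrophage lysozyme, rose 16.8-fold. Of 6 tested beta cell markers 3 were called lower, with summed net Cy5 of 4280 to 33200 and 12200 to 30900. Of 6 markers of other endocrine cells 3 were called lower and 1 higher, and of 6 acinar markers 4 were called lower, beside 16.2% of all tested probes. Summed net Cy5 was 28200 to 42400 in NOD and 14400 to 33400 in NOD.B10 for the endocrine list. For the acinar list it was 255 to 3190 and 188 to 9750. These lower calls depend on the scaling, since median centring turned the 867 lower calls over all probes into 1. Of 2 endothelial markers 0 were called (limma, 0 at an unadjusted p under 0.05). The part of leukocytes in the rise of B2m, H2-K1 and H2-M3 was not tested. B2m and H2-K1 were well above background on all 6 NOD.B10 arrays. Of the 8 tested leukocyte markers 7 were so on none and Srgn on 6. Among the macrophage and dendritic cell markers Lyz2 was so on 6, Ctss and Mpeg1 on 5 and C1qc on 1. Probes differ in brightness, so these counts do not compare amounts between genes.

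**Figure D5:**
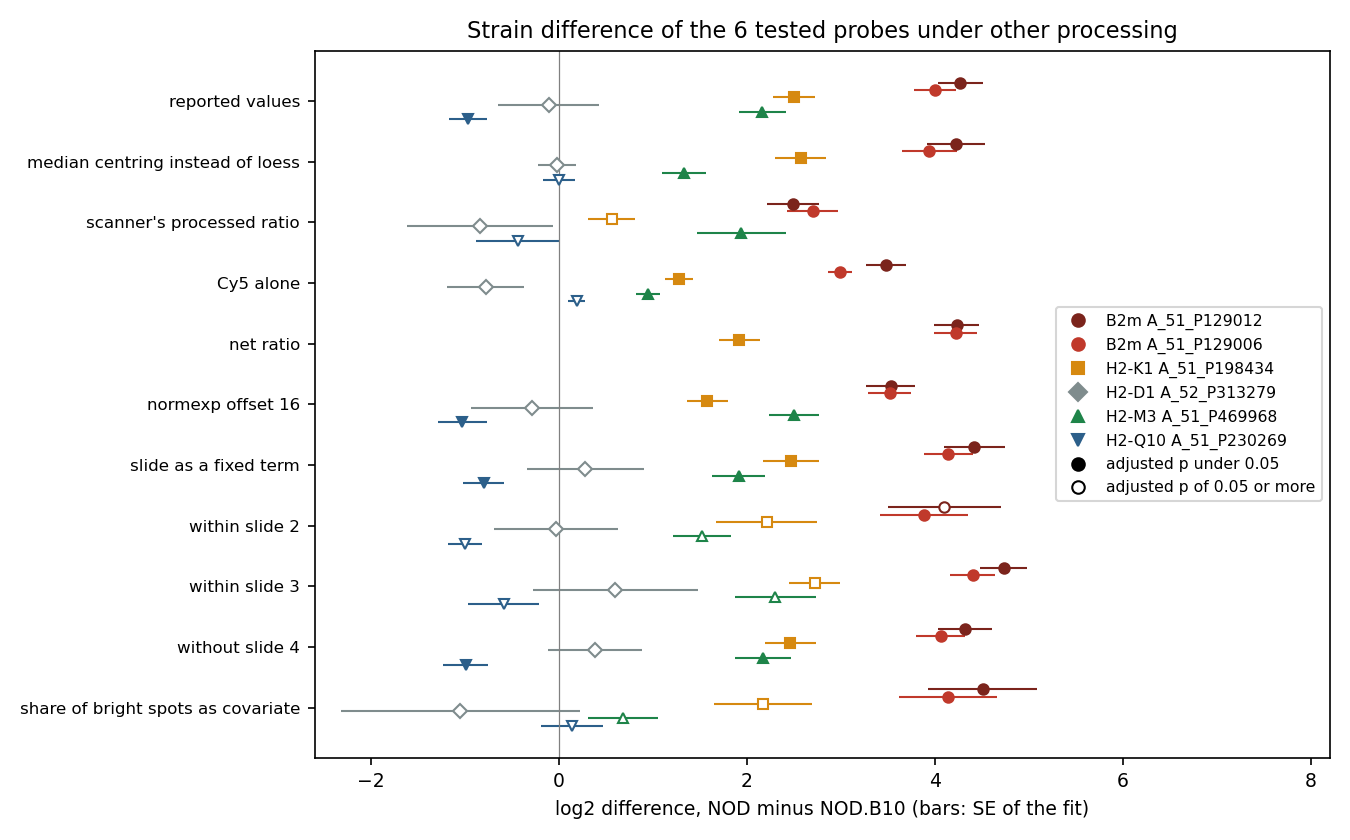
Log2 difference of NOD minus NOD.B10 (x axis, bars give the SE of the fit) for the 6 tested probes under the reported and 10 other ways of processing (y axis), relative to the median of all probes where scaling moved it; filled points passed an adjusted p of 0.05. Both B2m probes stay between 2.49 and 4.73 in every setting shown, H2-K1 runs from 0.56 to 2.72, and H2-D1 and H2-Q10 lie on both sides of 0. The dimmer probes of H2-D1, H2-M3 and H2-Q10 have no net ratio.

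Across these settings B2m kept the firmest values. Probe A_51_P129006 was called under all 27 alternatives tried and A_51_P129012 under 27 of 28, with adjusted p of 0.0525 within slide 2 alone. Within slide 3, with 2 mice per strain, 2 of all tested probes were called higher, and both were those of B2m. With the share of bright spots as a covariate 5 probes were called higher, among them both of B2m, and Lyz2 and Junb. The within-slide differences of A_51_P129012 were 4.10 on slide 2 and 4.73 on slide 3, and its smallest value, 2.49, came from the scanner's processed ratios. H2-K1 was 2.21 and 2.72 within these slides and H2-M3 1.52 and 2.30, without passing the adjusted threshold there.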

How the data were processed

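Scanner intensity values (median signal and median background per spot and channel) were deposited as Feature Extraction 10.5.1.1 wrote them, per the file headers. Processed intensity values and other quality marks, such as the mark of a spot well above background, were set by the authors' feature extraction per the file headers. The deposited series table held the log2 of processed Cy5 over Cy3, equal for 100% of values compared within 0.001. The labels do not state this. Its medians per array ran from -0.062 to -0.285.

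In either channel normexp (offset 50) was applied, then loess within arrays, in limma 3.58.1 under R 4.3.3. Control and outlier spots had weight 0, and spots of a probe were averaged. Of 45018 spots 1639 were controls, and 0 were saturated. Accessions were matched to RefSeq symbols of GRCm38.p6, naming 24375 probes and leaving 16799 unnamed. Array coordinates were not used here. Strains were compared with lmFit and eBayes, with Benjamini-Hochberg adjustment over all 5347 tested probes. Differences are NOD minus NOD.B10. Where a gene had no NOD.B10 array above background, a lower bound is given, with its Cy5 there floored at percentile 10 of the array's well-detected signals, or no fold where that is not above 1. With 1 such array no size is given for a list gene called higher. Tests were run on simulated data first.

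Members and the 6 pathway and 8 marker lists (166 entries) were chosen with earlier results of these data known. Named from each list are members and up to 3 called genes with the smallest p, or up to 2 where none passed. A gene that this rule names is not reported here. Tapbp, Calr, Cd8a and Junb were added after their values were seen. Alternatives covered scaling, filter, slide, array weights, the share of bright spots, the replicate number and each mouse left out. The number of arrays limits the precision.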

Additional observations from a re-analysis of the deposited data

How the results depend on the processing

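Scaling moved the median of all probes by 0.42 (median centring), 0.47 (scanner's processed ratio) and -0.36 (net ratio without background offset), and member values are given relative to it. For H2-K1 the difference was 0.56 with the scanner's ratio, 2.21 within slide 2, 2.72 within slide 3 and 2.17 with the share of bright spots as a covariate, without a call. The covariate separates poorly from strain, since the Cy5 share of bright spots did not overlap between the strains. Calls lost under it are limited by this. H2-M3 lost its call within slide 2 (1.52), within slide 3 (2.30) and with the covariate (0.68), and B2m probe A_51_P129012 within slide 2 (4.10). H2-Q10 lost its call with median centring (0.00), the scanner's ratio (-0.44), within slide 2 (-1) and within slide 3 (-0.59), and turned with Cy5 alone (0.19) and the covariate (0.14). H2-D1, never called, turned without slide 4 (0.38), within slide 3 (0.60) and with slide in the fit (0.28). It ran from -0.43 to 0.28 as each mouse was left out. Its lowest values were -1.05 with the covariate, -0.84 with the scanner's ratio and -0.78 with Cy5 alone. The cause of these changes was not tested. Leaving out each mouse gave 4.12 to 4.48 and 3.88 to 4.19 for B2m, 2.34 to 2.65 for H2-K1, 2.04 to 2.33 for H2-M3 and -1.15 to -0.82 for H2-Q10, with no call lost.

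Over all probes, 1075 were called higher and 867 lower. With median centring these were 2579 and 1 (4 lower at an unadjusted p under 0.05), with the net ratio 177 and 377, with signal on all 12 arrays 222 and 224, with slide as a term 512 and 420, within slide 2 44 and 56, within slide 3 2 and 1, and with the covariate 5 and 0 (limma, 175 lower at an unadjusted p under 0.05). Calls lower were 471 with the scanner's ratio, 365 with Cy5 alone and 1660 without a filter. Leaving out each mouse gave 879 to 1223 higher and 703 to 1013 lower. Of the member probes, 1 was called higher within slide 2, 2 within slide 3 and 2 with the covariate, and 0 were called lower under median centring, the scanner's ratio, Cy5 alone, the net ratio, signal on all 12 arrays, either slide alone or the covariate (limma, with 1 at an unadjusted p under 0.05 within slide 2 and 0 in the others). Of the pathway lists' genes, 1 regulator was called higher within slide 2, and 0 genes were within slide 3 or with the covariate (limma). The replicate numbers do not pair the mice, since same-numbered mice correlated at -0.16 to 0.23. With the number as a replicate block, 922 probes were called higher and 734 lower, and no member call changed, with B2m at 4.27 and 4.00, H2-K1 at 2.50, H2-M3 at 2.16, H2-D1 at -0.11 and H2-Q10 at -0.97. The NOD.B10 values of H2-Q10 rest on 1 array above background and those of H2-D1 on 4, which limits H2-Q10 most.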

Other observations

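A pair of dim probes named for different heavy chains, A_51_P496996 (H2-D1) and A_51_P496997 (H2-Q10), was well above background on the same 3 arrays, those of NOD replicates 2, 4 and 6, and on no NOD.B10 array. Net Cy5 of A_51_P496996 was 18, 16 and 14 in these mice, and that of A_51_P496997 was 18, 15 and 14. In NOD.B10 they ranged from -1 to 3.5 and from -5 to 6.5. With the 10th-percentile floor neither gives a lower bound above 1. With the lowest signal well above background as the floor, the bounds were 0.30 and 0.27 on the log2 scale. The brighter H2-D1 probe did not follow them, since its highest NOD ratio was in replicate 5, at 2.87, where A_51_P496996 read -0.02. Whether these probes bind transcripts of other class I genes was not tested.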
